A study of Mus musculus with 3 samples.

Results

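The cells described here were the Pi16-positive fibroblasts of adult mouse bladder, 1143 single cells of the 23925 mouse cells kept over the 3 libraries of the series. They were chosen in the bladder library from 2 measured transcripts. Each had at least 50 of every 10,000 mouse UMIs (unique molecular identifiers, 1 per captured RNA molecule) on Dcn, the collagen-binding proteoglycan decorin, and at least 2 UMIs of Pi16, peptidase inhibitor 16. Of the 7013 mouse cells of the bladder library, 1581 passed the Dcn minimum, and the Pi16-positive cells were 72.3% of these (exact 95% interval 70.0% to 74.5%) and 16.3% of all its mouse cells (15.4% to 17.2%). They were set against the 303 cells of the same library that passed the Dcn minimum with Pi16 at 0, called Pi16-zero cells. The other 135 Dcn-high cells had 1 Pi16 UMI and entered neither group.

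The bladder library came from a pool of 8 bladders of wild-type (wt in the title) C57BL/6 mice aged 8 to 9 weeks. The labels name no treatment or allele. The other libraries were assembloids (bladder tissue rebuilt in culture), each a pool of 3, taken at 1 day and at 7 days after reconstitution, and the labels used here give neither strain nor cell source for them. All samples were dissociated with enzymes and captured with the 10x Genomics Single Cell 3′ kit, version 3. Each group had 1 library, so no difference has a replicate check, no test was possible, and every interval below covers counting error only.

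Fibroblasts of the connective tissue around vessels and organs, the adventitia, are commonly recognised by Pi16, whose product is a secreted protein of the CAP family, together with Clec3b (tetranectin, a plasminogen-binding protein), Dpt (dermatopontin, a small matrix protein) and Cd34. In several mouse tissues such cells have been described as stromal progenitors that hold other fibroblast states in reserve, and they carry proteins of elastic fibres and microfibrils. Bladder stroma also holds fibroblasts close to the urothelium, smooth muscle of the detrusor, pericytes and a mesothelial covering.

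Barcodes numbered 8642 in bladder, 9039 at 1 day and 9548 at 7 days, their UMIs 93560608, 135955678 and 120301672, and kept mouse cells had a median of 7737, 15210.5 and 9508 UMIs. Bladder shared 21 barcodes with the 1-day library and 30 with the 7-day library, and the assembloid libraries shared 114. Of the Pi16-positive bladder cells, 5 shared a barcode with a 1-day cell and 2 with a 7-day cell. Leaving out cells of shared barcodes left 1136 Pi16-positive and 300 Pi16-zero cells.

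The Pi16-positive cells had the identity the label gives them as fibroblasts, while their position in the tissue was not measured. A fibroblast list of 8 genes, with Dcn left out because the choice used it, took 38721 CPM (counts-per-million, a gene’s part of all UMIs of the group) in the Pi16-positive cells and 27498 CPM in the Pi16-zero cells, beside 426 CPM in bladder cells under the Dcn minimum. Among the 4 label genes, Clec3b stood at 2655 CPM in Pi16-positive and 747 CPM in Pi16-zero cells, and Dpt at 743 CPM in Pi16-positive and 496 CPM in Pi16-zero cells. Dcn, which the choice used, was at 20908 CPM in Pi16-positive and 17609 CPM in Pi16-zero cells. In bladder cells under the Dcn minimum, Clec3b was at 6.66 CPM, Dpt at 4.60 CPM and Pi16 at 5.82 CPM.

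The groups were sequenced to like depth. Pi16-positive cells had a median of 6062 UMIs, 2137 genes and 3.58% mitochondrial UMIs, and Pi16-zero cells a median of 5957 UMIs, 2189 genes and 4.16% mitochondrial UMIs. Pi16-positive cells carried a median of 10 Pi16 UMIs, with quartiles of 5 and 20 and a highest value of 129. At the lower edge of the rule, 135 cells had 1 Pi16 UMI and lay just outside, while 283 cells had 2 to 4 and lay just inside. Of the 20 cells with Dcn at 50 to 60 per 10,000 UMIs, 4 had at least 2 Pi16 UMIs, and of the 21 cells just outside, at 40 to 50 per 10,000, 6 had.

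Urothelial cells, which should lack Pi16, gave its background. They were called among cells under the Dcn minimum, by at least 20 of 10,000 UMIs on a 12-gene urothelium list. Of these 2896 cells, 32 (1.10%) had at least 2 Pi16 UMIs and 147 (5.08%) had at least 1, at a median depth of 21231 UMIs. Dcn-high cells with more than 20 on that list, 26 Pi16-positive and 46 Pi16-zero, were thus not part of this background. The Pi16-positive share of Dcn-high cells, 72.3%, was far above both at lower depth. At these depths a Pi16 count of 0 or 1 does not show that a cell lacks the transcript.

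Cells carrying markers of other types were unequal between the groups. More than 20 of 10,000 UMIs fell on 85 markers of other cell types in 103 of 1143 Pi16-positive cells (9.01%) and in 112 of 303 Pi16-zero cells (37.0%). The summed mesothelium list of 8 genes was at 157 CPM in Pi16-positive and 2241 CPM in Pi16-zero cells, and the summed smooth muscle list, also of 8 genes, at 222 CPM in Pi16-positive and 2057 CPM in Pi16-zero cells. No gene of either list was at 0 in either group. The urothelium list took 1021 CPM in Pi16-positive and 1395 CPM in Pi16-zero cells, and the pericyte list 219 CPM in Pi16-positive and 237 CPM in Pi16-zero cells. Within the urothelium list, Krt7, Krt8, Upk1b and Krt19 were higher in Pi16-zero cells. Krt19, also on the mesothelium list, was at 82.6 CPM in Pi16-positive and 450 CPM in Pi16-zero cells. The other urothelium genes were higher in Pi16-positive cells, such as Upk1a, at 138 CPM against 46.6 CPM in Pi16-zero cells. The erythrocyte list took 328 CPM in Pi16-positive and 58.8 CPM in Pi16-zero cells. Of 9 lymphocyte markers, 6 were at 0 in each group, with sums of 1.97 CPM in Pi16-positive and 8.94 CPM in Pi16-zero cells. Gene counts, lists and most named genes are therefore also given over unmarked cells alone, those at or below 20 per 10,000, of which there were 1040 Pi16-positive and 191 Pi16-zero cells.

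Against the Pi16-zero cells, the Pi16-positive cells held more RNA of a secreted keratinocyte-type protein, of the adipokine C1qtnf3, of the ferritin receptor Scara5 and of microfibril and elastin genes, and less of a set that included Tnc, Car3, Apod, Rbp4 and Cxcl14. UMIs were summed over each group. A gene was called where its CPM differed at least 2-fold and the 95% counting interval of the ratio excluded 1, among genes with at least 20 CPM in either group. Of 6375 such genes, 160 (2.51%) were higher and 481 (7.55%) were lower in Pi16-positive cells, with a median log2 ratio of -0.12. Over unmarked cells, 132 of 6124 genes (2.16%) were higher and 306 (5%) were lower, with a median log2 ratio of -0.06. The groups were chosen by values of these same cells, so these counts describe the split and are not evidence for it.

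Among the named genes other than Pi16, the widest excess in Pi16-positive cells was that of Krtdap, keratinocyte differentiation-associated protein, a small secreted protein known from stratified epithelia. It had 1011 UMIs (142 CPM) in Pi16-positive cells against 12 UMIs (5.65 CPM) in Pi16-zero cells, a log2 ratio of 4.60 (3.84 to 5.61), and 0.282 CPM in bladder cells under the Dcn minimum. Over unmarked cells it was at 149 CPM in Pi16-positive and 4.49 CPM in Pi16-zero cells (log2 4.92, 3.83 to 6.68). The transcript was thus nearly limited to Dcn-high cells with Pi16 in this library, and urothelial cells, an epithelium, held little of it: after thinning to 3000 UMIs a cell, 208 of 948 Pi16-positive cells (21.9%), 5 of 260 Pi16-zero cells (1.92%) and 2 of 2820 urothelial cells (0.0709%) had a Krtdap UMI. The unthinned shares were 30.8% of Pi16-positive, 2.31% of Pi16-zero and 0.311% of urothelial cells, and thinning left out 195, 43 and 76 shallower cells of these groups.

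Krtdap lies on the plus strand of chromosome 7 (mm10, chr7:30787896-30791097) directly after Sbsn (suprabasin, chr7:30751471-30756134) and Dmkn (dermokine, chr7:30763756-30781063), genes of secreted proteins that are likewise known from the upper layers of the epidermis. These neighbours were looked at after Krtdap's value was seen. Over all cells, Sbsn was at 129 CPM in Pi16-positive and 95.1 CPM in Pi16-zero cells (log2 0.43), and Dmkn was lower in Pi16-positive cells, at 30.97 CPM against 148 CPM in Pi16-zero cells (log2 -2.26). All 315 Dmkn UMIs of the Pi16-zero cells came from 36 of the 112 marked cells. Over unmarked cells, Sbsn was at 136 CPM in Pi16-positive and 21.5 CPM in Pi16-zero cells (log2 2.63, 2.07 to 3.31). Dmkn had 199 UMIs (31.9 CPM) in unmarked Pi16-positive cells and none in unmarked Pi16-zero cells, which put it at least 11.8-fold higher, taking 3 counts over that group (2.69 CPM) as the floor, with a lower counting limit of 3.25 on the log2 scale for the ratio itself. Outside this run of 3 genes, the nearest genes Gapdhs and Ffar2, both on the minus strand, had no UMI in either group.

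The 3 transcripts met in the same cells. Of 1040 unmarked Pi16-positive cells, 321 had a Krtdap UMI. Sbsn was seen in 65.1% of these 321 and in 22.4% of the other cells, and Dmkn in 25.2% of the 321 and in 1.11% of the other cells. Scara5 was seen in 86.6% of cells with Krtdap and 41.2% of cells without it, whereas C1qtnf3 was seen in 21.8% of cells with Krtdap and 51.7% of cells without it. The cells with Krtdap had a median of 6543 UMIs and those without it 5814, a gap in the direction of the first 3 shares and opposite to that of C1qtnf3, whose part was not tested.

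The start regions of the 3 neighbours are shown because their transcripts shared cells. Each runs from 250 bases before to 50 bases after a start, 5′ to 3′ on the plus strand, from RefSeq on GRCm38.p6. Capitals mark TGAGTCA, the core sequence known to bind AP-1 factors, and TATAAA, the TATA box. The Krtdap region is chr7:30787655-30787954, the Sbsn region chr7:30751221-30751520, and the Dmkn regions chr7:30763506-30763805 (called 5′ start here) and chr7:30776155-30776454 (called inner start here).
Krtdap: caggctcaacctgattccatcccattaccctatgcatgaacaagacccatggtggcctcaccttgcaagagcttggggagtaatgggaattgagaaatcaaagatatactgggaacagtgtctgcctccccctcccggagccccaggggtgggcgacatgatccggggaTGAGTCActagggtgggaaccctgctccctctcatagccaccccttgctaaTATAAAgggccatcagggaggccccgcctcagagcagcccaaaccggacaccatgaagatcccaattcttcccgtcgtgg
Sbsn: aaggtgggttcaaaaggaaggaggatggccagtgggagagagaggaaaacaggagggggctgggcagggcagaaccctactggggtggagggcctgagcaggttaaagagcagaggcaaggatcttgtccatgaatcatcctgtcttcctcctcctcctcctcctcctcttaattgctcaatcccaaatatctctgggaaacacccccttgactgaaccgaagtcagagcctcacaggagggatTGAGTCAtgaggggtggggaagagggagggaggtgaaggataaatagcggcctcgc
Dmkn, 5′ start: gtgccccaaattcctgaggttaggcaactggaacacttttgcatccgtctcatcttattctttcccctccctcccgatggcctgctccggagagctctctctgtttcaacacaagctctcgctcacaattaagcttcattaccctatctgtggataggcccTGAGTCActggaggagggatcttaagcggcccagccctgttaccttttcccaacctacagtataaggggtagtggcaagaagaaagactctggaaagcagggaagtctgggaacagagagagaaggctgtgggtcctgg
Dmkn, inner start: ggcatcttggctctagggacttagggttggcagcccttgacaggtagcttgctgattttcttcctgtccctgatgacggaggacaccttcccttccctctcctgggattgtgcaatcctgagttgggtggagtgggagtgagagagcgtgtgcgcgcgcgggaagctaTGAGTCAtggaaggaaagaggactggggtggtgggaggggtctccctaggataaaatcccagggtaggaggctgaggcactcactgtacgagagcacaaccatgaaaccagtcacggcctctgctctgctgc
The AP-1 letters began 81 bases before the start of Krtdap, 6 bases before that of Sbsn and 89 and 82 bases before these starts of Dmkn. A further Dmkn region, which begins 2 bases after the one at the 5′ start, held the same match. Among the 3 genes the TATA letters were found for Krtdap alone, 30 bases before the start. Both motifs were searched on both strands with exact letters and cannot overlap each other. Of 32851 such regions of 27025 genes, 1709 (5.20%) held the AP-1 letters and 4473 (13.6%) the TATA letters. The AP-1 letters were chosen after the sequences had been read, and a match is a description of letters, not a binding site. The Pi16 region (chr17:29318632-29318931) held neither motif, and the C1qtnf3 region (chr15:10952082-10952381) held the TATA letters 6 bases before its start.

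Other secreted and surface products separated the groups in the same direction. C1qtnf3, an adipokine of the C1q and TNF family, was at 229 CPM in Pi16-positive and 14.6 CPM in Pi16-zero cells (log2 3.95, 3.46 to 4.53). Scara5, a scavenger receptor that takes up ferritin, was at 376 CPM in Pi16-positive and 48.9 CPM in Pi16-zero cells (log2 2.93, 2.66 to 3.24). Both remained higher over unmarked cells, at log2 3.27 and 2.32. Npy1r, a receptor for neuropeptide Y, was at 132 CPM in Pi16-positive and 23.1 CPM in Pi16-zero cells (log2 2.50). Stc2 (stanniocalcin 2) was at 157 CPM in Pi16-positive and 24.0 CPM in Pi16-zero cells (log2 2.70), and Dner, a transmembrane protein with EGF repeats that can bind Notch, at 159 CPM in Pi16-positive and 25.9 CPM in Pi16-zero cells (log2 2.61). Each of the 3 was also called over unmarked cells, with log2 ratios of 2.85 for Npy1r, 2.06 for Stc2 and 1.90 for Dner.

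Of the 39 measured genes of a list of adventitial fibroblast genes other than Pi16, 13 were higher and 9 lower in Pi16-positive cells over all cells, with a median log2 ratio of 0.41. Over unmarked cells 15 of 34 were higher and 3 lower, with a median of 0.74 beside -0.06 for all genes. Of all genes, 2.51% were higher and 7.55% lower over all cells, and 2.16% higher and 5% lower over unmarked cells. The list was drawn up with earlier results of these cells known and is not independent evidence. Clec3b had a log2 ratio of 1.83 (1.76 to 1.90) over all cells and 1.29 over unmarked cells. Cd55, which protects cells from complement, was at 386 CPM in Pi16-positive and 90.8 CPM in Pi16-zero cells (log2 2.09), beside 92.5 CPM in bladder cells under the Dcn minimum. Pcolce2, which aids the trimming of procollagen ends, was at 349 CPM in Pi16-positive and 82.4 CPM in Pi16-zero cells (log2 2.08). Cd34, a sialomucin, was at 785 CPM in Pi16-positive and 359 CPM in Pi16-zero cells (log2 1.13), and Cd248, the stromal antigen endosialin, at 274 CPM in Pi16-positive and 90.4 CPM in Pi16-zero cells (log2 1.60). The scavenging chemokine receptor Ackr3 had 108 CPM in Pi16-positive and 36.7 CPM in Pi16-zero cells (log2 1.55). All 6 were called over unmarked cells too, where Cd55 was further apart (log2 2.96).

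Dpt, the fourth label gene, did not pass the 2-fold call: its log2 ratio was 0.58 (0.49 to 0.68) over all cells. Over unmarked cells it was -0.04 (-0.14 to 0.06), with 797 CPM in Pi16-positive and 821 CPM in Pi16-zero cells. Dpp4, a surface peptidase often used beside Pi16 to mark such fibroblasts in mouse, was low, at 7.32 CPM in Pi16-positive and 90.8 CPM in Pi16-zero cells. Over unmarked cells Dpp4 was at 7.21 CPM in Pi16-positive and 6.28 CPM in Pi16-zero cells, with no call. In the Pi16-positive cells of this bladder library, Dpp4 was therefore a scarce transcript, seen after thinning in 14 of 948 cells (1.48%), against 32 of 260 Pi16-zero cells (12.3%) and 1 of 2820 urothelial cells (0.0355%).

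**Figure D1:**
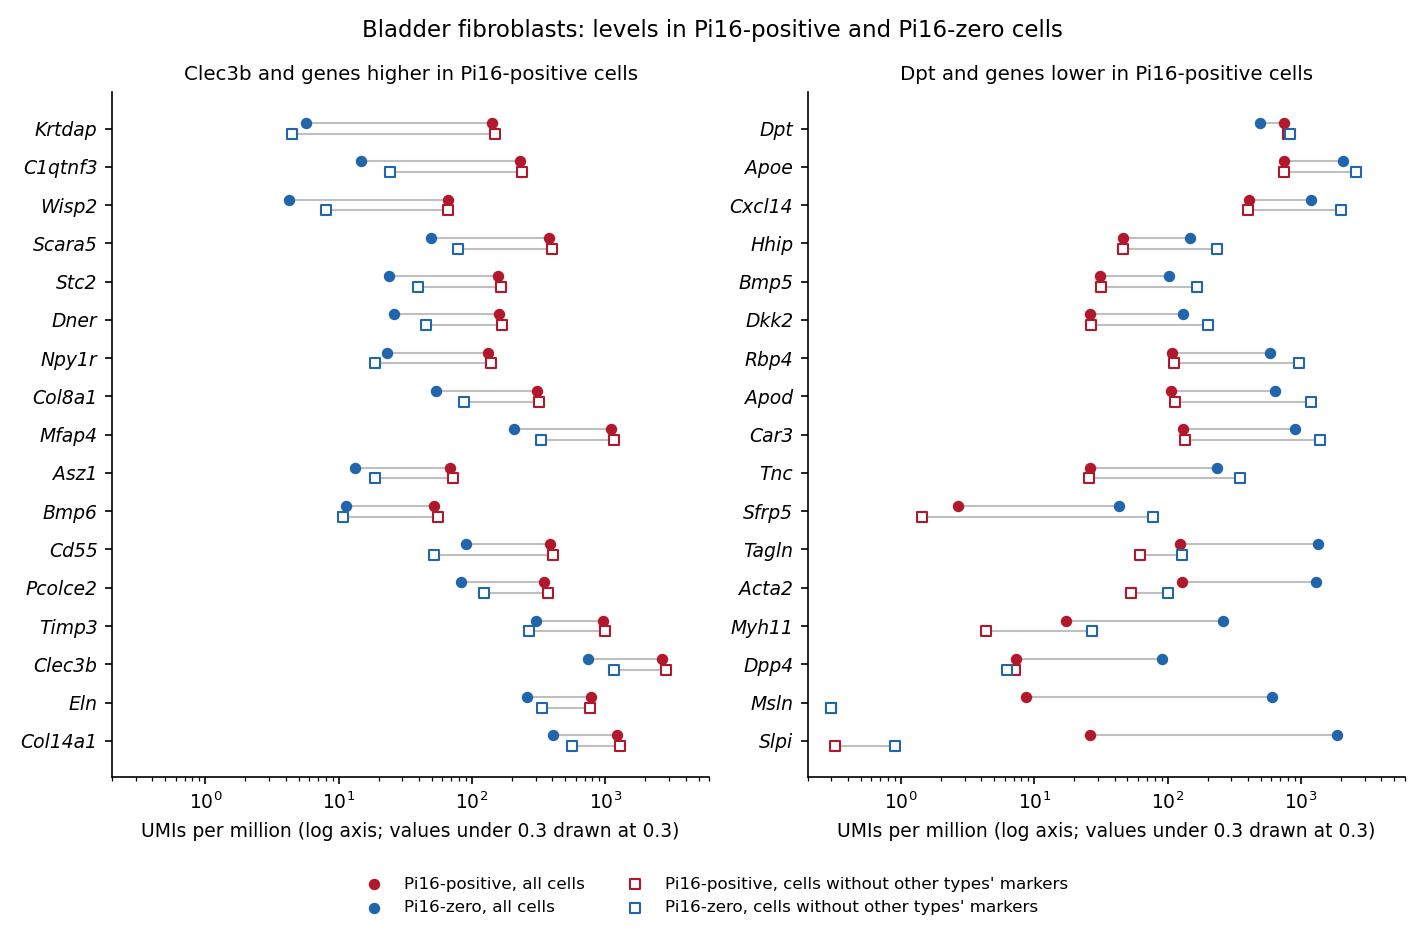
Levels of 17 genes higher in Pi16-positive cells (left), and of Dpt and 16 genes lower in them (right), in counts-per-million (CPM) on a log axis. Each pair of dots is the Pi16-positive and the Pi16-zero cells of the adult bladder, over all cells and over cells without other types' markers. Krtdap shows the widest gap on the left, and the mesothelial gene Msln is at 0 in both groups once marked cells are left out. Msln, Myh11 and Acta2 were among the markers used to leave those cells out.

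Genes of elastic fibres and microfibrils formed a further group. Of 21 measured genes on that list, 7 were higher and 2 lower over all cells (median log2 ratio 0.73), and 6 higher and 1 lower over unmarked cells (median 0.36). Of all genes, 2.51% were higher and 7.55% lower over all cells, and 2.16% higher and 5% lower over unmarked cells. Mfap4, a microfibril-associated protein that binds elastin, was at 1110 CPM in Pi16-positive and 206 CPM in Pi16-zero cells (log2 2.43, 2.29 to 2.57). Eln, the elastin precursor, was at 787 CPM in Pi16-positive and 260 CPM in Pi16-zero cells (log2 1.60), Fbn1, fibrillin of the microfibril, at 310 CPM in Pi16-positive and 112 CPM in Pi16-zero cells (log2 1.46), and Mfap5 at 851 CPM in Pi16-positive and 341 CPM in Pi16-zero cells (log2 1.32). These 4 were called over unmarked cells as well, at log2 ratios of 1.81 for Mfap4, 1.18 for Eln, 1.19 for Fbn1 and 1.16 for Mfap5. The rest of the 7 genes higher over all cells were not called over unmarked cells. Loxl1, which crosslinks elastin, and Fbln2, a microfibril-bound fibulin, were called over unmarked cells alone, at log2 1.12 and 1.34.

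The main fibrillar collagens did not separate the groups. Over unmarked cells Col1a1 was at 10728 CPM in Pi16-positive and 12893 CPM in Pi16-zero cells, and Col3a1 at 11663 CPM in Pi16-positive and 11221 CPM in Pi16-zero cells. Among 21 measured collagen genes and enzymes, 3 were higher and 4 lower over unmarked cells, beside 2.16% and 5% of all genes. Col14a1, a collagen that sits on fibril surfaces, was the widest of the 3 after Pcolce2, at 1293 CPM in Pi16-positive and 560 CPM in Pi16-zero cells (log2 1.21). Col12a1, of the same fibril-associated class, went the other way, at 139 CPM in Pi16-positive and 446 CPM in Pi16-zero cells (log2 -1.68), as did Col6a3 (log2 -1.36).

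Proteinase inhibitors and secreted regulators were mixed. Timp3, a matrix-bound inhibitor of metalloproteinases, was at 957 CPM in Pi16-positive and 302 CPM in Pi16-zero cells (log2 1.66), and at log2 1.88 over unmarked cells. It was the 1 gene called higher among 20 measured metalloproteinases and inhibitors, while 2.51% of all genes were called higher over all cells. Bmp6, a bone morphogenetic protein, was at 51.8 CPM in Pi16-positive and 11.3 CPM in Pi16-zero cells (log2 2.17). It was the single gene called higher over unmarked cells among 27 measured genes of the BMP and TGF-beta axis. Another 7 were lower, among them the ligands Bmp2, Bmp3, Bmp5 and Bmp7. Of all genes over unmarked cells, 2.16% were higher and 5% lower. Wisp2, a secreted protein of the CCN family, was at 66.3 CPM in Pi16-positive and 4.24 CPM in Pi16-zero cells (log2 3.89), and over unmarked cells at 66.5 CPM in Pi16-positive and 8.07 CPM in Pi16-zero cells (log2 2.96).

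Transcripts lower in Pi16-positive cells included matrix, lipid-transport and signalling genes. Tnc, the matrix protein tenascin C, was at 26.2 CPM in Pi16-positive and 234 CPM in Pi16-zero cells (log2 -3.16, -3.41 to -2.91). Car3, a carbonic anhydrase abundant in fat and muscle, was at 130 CPM in Pi16-positive and 908 CPM in Pi16-zero cells (log2 -2.80). Apod, a lipid-binding apolipoprotein, was at 105 CPM in Pi16-positive and 643 CPM in Pi16-zero cells (log2 -2.61), and Rbp4, the carrier of retinol in blood, at 107 CPM in Pi16-positive and 586 CPM in Pi16-zero cells (log2 -2.45). All 4 were further apart over unmarked cells, at log2 -3.75 for Tnc, -3.36 for Car3, -3.40 for Apod and -3.10 for Rbp4. Apod was not carried by a wider share of Pi16-zero cells: after thinning, 18.0% of Pi16-positive and 18.1% of Pi16-zero cells had a UMI, beside 0.142% of urothelial cells, so no order is read from that share.

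Of 15 measured Wnt ligands, antagonists and targets, 2 were higher and 9 lower over all cells (median log2 ratio -1.33), and none was higher and 8 lower over unmarked cells (median -1.11), beside 7.55% and 5% of all genes lower. Dkk2, a secreted Wnt antagonist, was at 26.3 CPM in Pi16-positive and 131 CPM in Pi16-zero cells (log2 -2.31), and the ligand Wnt4 at 66.9 CPM in Pi16-positive and 181 CPM in Pi16-zero cells (log2 -1.44). Over unmarked cells Dkk2 was at log2 -2.91, and Wnt4 at 60.7 CPM in Pi16-positive and 242 CPM in Pi16-zero cells. Rspo3, which amplifies Wnt signals, had 27 UMIs (3.80 CPM) in Pi16-positive and 31.1 CPM in Pi16-zero cells (log2 -3.02, and -3.53 over unmarked cells). Axin2, Nkd1 and Notum, which are targets and feedback inhibitors of Wnt, were lower over unmarked cells at log2 -1.11, -1.63 and -1.72.

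Of 15 measured genes of hedgehog-responsive stroma, 6 were lower over all cells and 6 over unmarked cells, and none was higher in either. Of all genes, 7.55% were lower over all cells and 5% over unmarked cells. Hhip, a hedgehog-binding inhibitor and target, was at 46.5 CPM in Pi16-positive and 146 CPM in Pi16-zero cells (log2 -1.66, and -2.34 over unmarked cells). Bmp5, a ligand known from stroma under epithelium, was at 31.1 CPM in Pi16-positive and 103 CPM in Pi16-zero cells (log2 -1.72, and -2.39 over unmarked cells). The receptor and target Ptch1 was called over unmarked cells (log2 -1.04), and Gli1, a further target, was not called in either (log2 -0.25 over all cells and -0.78 over unmarked cells).

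Of 15 measured chemokines, cytokines and their receptors, 1 was higher and 9 lower over all cells, and over unmarked cells 1 of 14 was higher and 7 were lower. Over all genes the share lower was 7.55% over all cells and 5% over unmarked cells. Cxcl14 was at 405 CPM in Pi16-positive and 1186 CPM in Pi16-zero cells (log2 -1.55), Cxcl13, which draws B cells, at 11.8 CPM in Pi16-positive and 44.2 CPM in Pi16-zero cells (log2 -1.90), and the neutrophil chemokine Cxcl1 at 44.9 CPM in Pi16-positive and 126 CPM in Pi16-zero cells (log2 -1.48). Il6 was at 15.2 CPM in Pi16-positive and 51.3 CPM in Pi16-zero cells (log2 -1.75). Over unmarked cells the log2 ratios were -2.32 for Cxcl14, -2.59 for Cxcl13, -1.58 for Cxcl1 and -2.24 for Il6. The 1 higher gene in both was Ackr3, a scavenging receptor and not a ligand. Cxcl12 was not called and was at 593 CPM in Pi16-positive and 379 CPM in Pi16-zero cells.

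Among called genes with at least 50 CPM in Pi16-zero cells, the 14 lowest log2 ratios over all cells, -5.37 to -6.80, were those of Krt14, Myl7, Lgals2, Lgals7, Lrrn4, Pkhd1l1, Slpi, Gpm6a, Msln, Cldn15, Trem2, Upk3b, Rspo1 and Muc16. Msln (mesothelin, a mesothelial surface protein) was at 8.73 CPM in Pi16-positive and 607 CPM in Pi16-zero cells. Over unmarked cells each of these genes was at or under 6.28 CPM in both groups, and Msln was at 0 in both. Msln, Upk3b, Lrrn4 and Muc16 were themselves among the 85 markers used to leave cells out, as were Myh11 and Acta2. The levels of these marker genes over unmarked cells were therefore partly set by that choice. Of the contractile list, 15 of 16 measured genes were lower over all cells and 5 of 12 over unmarked cells, beside 7.55% and 5% of all genes. Over unmarked cells Myh11 and Tagln, of smooth muscle, were still called (log2 -2.64 and -1.07), and Acta2 was not, at 52.9 CPM in Pi16-positive and 100.5 CPM in Pi16-zero cells. C3, the central complement component, was lower over all cells (log2 -2.93) and was not called over unmarked cells (log2 -0.69).

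Most transcripts that report handling stress did not separate the groups in bladder. Of 30 immediate early and heat shock genes, none was higher and 1 was lower over all cells (median log2 ratio -0.11), and 2 were lower over unmarked cells. The share of all genes lower was 7.55% over all cells and 5% over unmarked cells. Socs3 was lower in both, at 153 CPM in Pi16-positive and 396 CPM in Pi16-zero cells over all cells (log2 -1.37). Fosl2 was lower over unmarked cells alone (log2 -1.08). Hspa1a, an inducible heat shock protein, stood at 3685 CPM in Pi16-positive and 3167 CPM in Pi16-zero cells, and Fos at 2681 CPM in Pi16-positive and 2943 CPM in Pi16-zero cells. Of 36 measured stromal transcription factors, 1 was higher and 4 were lower over all cells, beside 2.51% and 7.55% of all genes. Tcf21, a mesenchymal factor, was the higher one, at 493 CPM in Pi16-positive and 169 CPM in Pi16-zero cells (log2 1.54). It was just short of the call over unmarked cells (log2 0.96). Among 36 factors measured over unmarked cells, 2 others were higher and 4 were lower, beside 2.16% and 5% of all genes.

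Levels summed over cells also moved with the number of Pi16 UMIs among Dcn-high cells. With 0, 1, 2 to 4, 5 to 9 and at least 10 Pi16 UMIs, unmarked cells numbered 191, 120, 247, 248 and 545, and the median depth of all cells in these classes was 5957, 5270, 4666, 5128 and 6794.5 UMIs. Clec3b was at 1163, 1710, 2128, 2583 and 3146 CPM over these classes, and Krtdap at 4.49, 24.0, 39.3, 66.7 and 212 CPM. Both increased at every step. Scara5 was at 78.9, 55.9, 161, 207 and 538 CPM, and Timp3 at 268, 267, 527, 619 and 1261 CPM, each with its steps after the class of 1 UMI. C1qtnf3 levelled off, with 24.2, 49.6, 119, 247 and 273 CPM.

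In the other direction, Tnc was at 350, 273, 90.5, 37.2 and 1.86 CPM over the 5 classes, and Dkk2 at 200, 152, 73.4, 47.0 and 4.79 CPM. Car3 was at 1398, 881, 398, 250 and 13.8 CPM. The summed level in cells with 1 Pi16 UMI thus lay closer to that of Pi16-zero cells than of cells with 2 to 4 for Tnc and Dkk2. Tnc, Dkk2 and Car3 were highest in 1 cluster of Dcn-high cells, cluster 10 below, at 854, 523 and 3425 CPM. That cluster held 57 Pi16-zero cells, 25 cells with 1 Pi16 UMI and 41 Pi16-positive cells. A change in a summed level can come from the share of such cells, and their part in these steps was not tested. For Apod the break was at 1 UMI, with 1194, 221, 183, 92.5 and 98.3 CPM. Dcn, a shared fibroblast gene, was nearly level, at 21147, 21455, 21244, 22336 and 22333 CPM, and Dpt was at 821, 972, 924, 904 and 720 CPM. Classes by Pi16 UMIs depend on depth as well as on Pi16, and the deepest class was that of at least 10 UMIs.

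**Figure D2:**
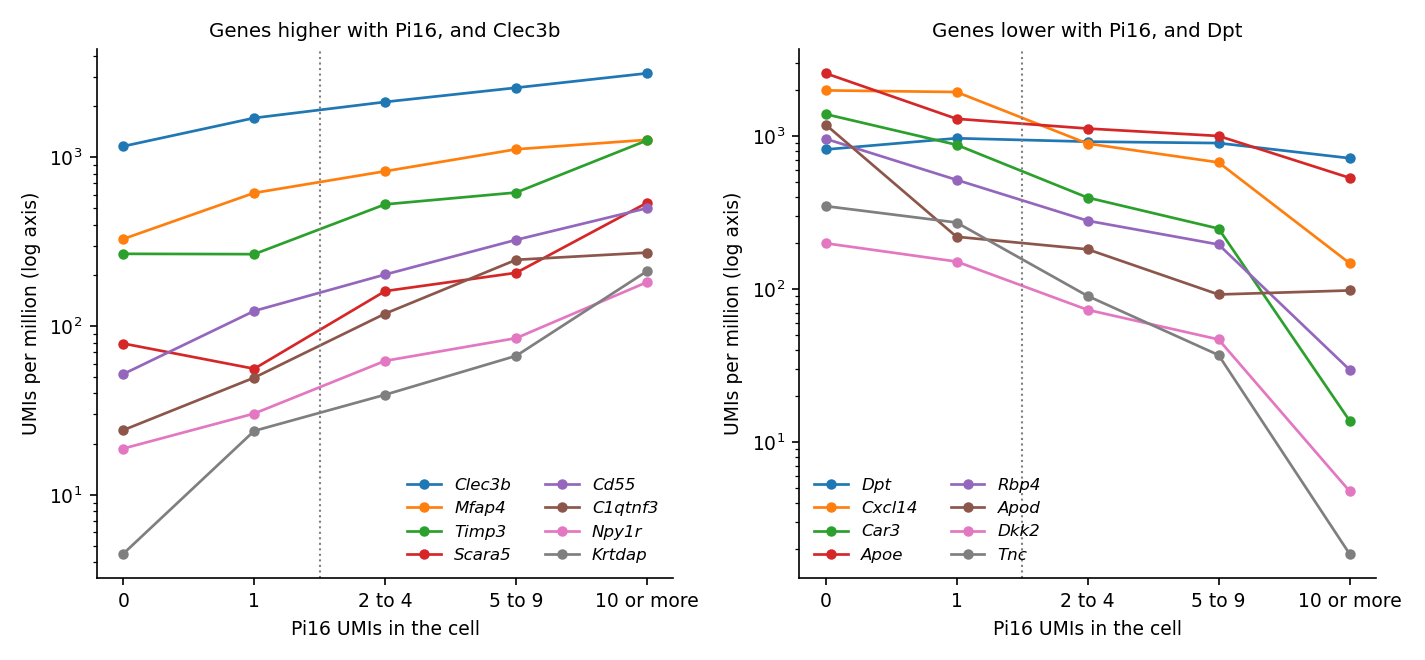
Levels of genes in counts-per-million (CPM), summed over the cells of each class that lack other types' markers. The classes are Dcn-high bladder cells with 0, 1, 2 to 4, 5 to 9 and at least 10 Pi16 UMIs. The dotted line marks the member threshold of 2 UMIs, and Krtdap climbs to 212 CPM in the last class while Tnc drops to 1.86 CPM.

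The Pi16-positive cells were not uniform. Dcn-high bladder cells were clustered on their other genes, with Pi16 and Dcn left out, into 17 clusters, numbered 0 to 16, of which 12 were mostly Pi16-positive and held 91.0% of the Pi16-positive cells. The clusters are described by the genes that define them, so these levels are no test. The largest group of Pi16-positive cells was in cluster 2, with 209 of 235 cells Pi16-positive, 18.3% of all Pi16-positive cells. It was led by C1qtnf3 and Adamtsl2, and Mfap4 was at 1861 CPM. The clusters with the highest Pi16-positive shares were 4, with 153 of 157 cells (97.5%), and 5, with 125 of 129 cells (96.9%).

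Clusters 4 and 5 held Krtdap at 354 and 323 CPM, Scara5 at 822 and 1003 CPM and Sbsn at 295 and 216 CPM, while C1qtnf3 was at 31.6 and 1.20 CPM. Cluster 2 held C1qtnf3 at 507 CPM and cluster 12, with 100 of 107 cells Pi16-positive, at 544 CPM, with Krtdap at 108 and 49.0 CPM. Krtdap and Scara5 were thus highest in other clusters than C1qtnf3, but not apart from it everywhere: cluster 3 held Krtdap at 194 CPM, Scara5 at 223 CPM and C1qtnf3 at 382 CPM, and cluster 2 held Scara5 at 206 CPM. Clusters 4 and 5 also differed from each other: cluster 4 had Timp3 at 2275 CPM, Pcolce2 at 875 CPM and Dpt at 633 CPM, and cluster 5 had Timp3 at 1219 CPM, Pcolce2 at 209 CPM and Dpt at 19.3 CPM. Cluster 5 carried Asz1, known from germ cells, at 361 CPM, and Cxcl14 at 926 CPM, and its Mfap4 (91.7 CPM) and Eln (49.4 CPM) were low.

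Other clusters were rich in elastin. Cluster 6, with 77 of 83 cells Pi16-positive, had Eln at 3100 CPM, Mfap4 at 2869 CPM and Wisp2 at 419 CPM, with Krtdap at 11.97 CPM. Cluster 14, with 29 of 46 cells Pi16-positive, had the highest Eln of all clusters, 4502 CPM, with Mfap4 at 876 CPM and Wisp2 at 5.31 CPM. Cluster 3, led by histone and division genes such as Top2a and Cdk1, had 130 of 152 cells Pi16-positive but a median of 2137.5 UMIs, the lowest depth of the clusters, and is left unnamed.

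The Pi16-zero cells gathered elsewhere. Clusters 8 and 10 held 123 of the 191 unmarked Pi16-zero cells (64.4%), so that the comparison over unmarked cells was largely one with these clusters. Cluster 8, with 48 of 157 cells Pi16-positive (30.6%), was led by Sult1e1 and Apod (1549 CPM) and still held Clec3b at 1971 CPM. Cluster 10, with 41 of 123 cells Pi16-positive (33.3%), was led by Car3 (3425 CPM), Tnc (854 CPM), Cxcl14 (5480 CPM) and Rbp4 (1968 CPM), and had Clec3b at 46.4 CPM and Dpt at 68.6 CPM. Clusters 13, 15 and 16, led by mesothelial or contractile genes, held 81 Pi16-zero cells and 14 Pi16-positive ones, and had no unmarked cell. A doublet caller marked 35 of 1143 Pi16-positive cells (3.06%) and 12 of 303 Pi16-zero cells (3.96%). Of its calls, 23 fell in cluster 11, led by urothelial genes such as Upk3a. That cluster had 25 of 29 cells Pi16-positive and no unmarked cell. Another 7 fell in cluster 9, led by endothelial genes such as Cldn5, with 11 of 16 cells Pi16-positive and 1 unmarked cell. Clusters 9 and 11 were both among the 12 mostly Pi16-positive clusters.

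**Figure D3:**
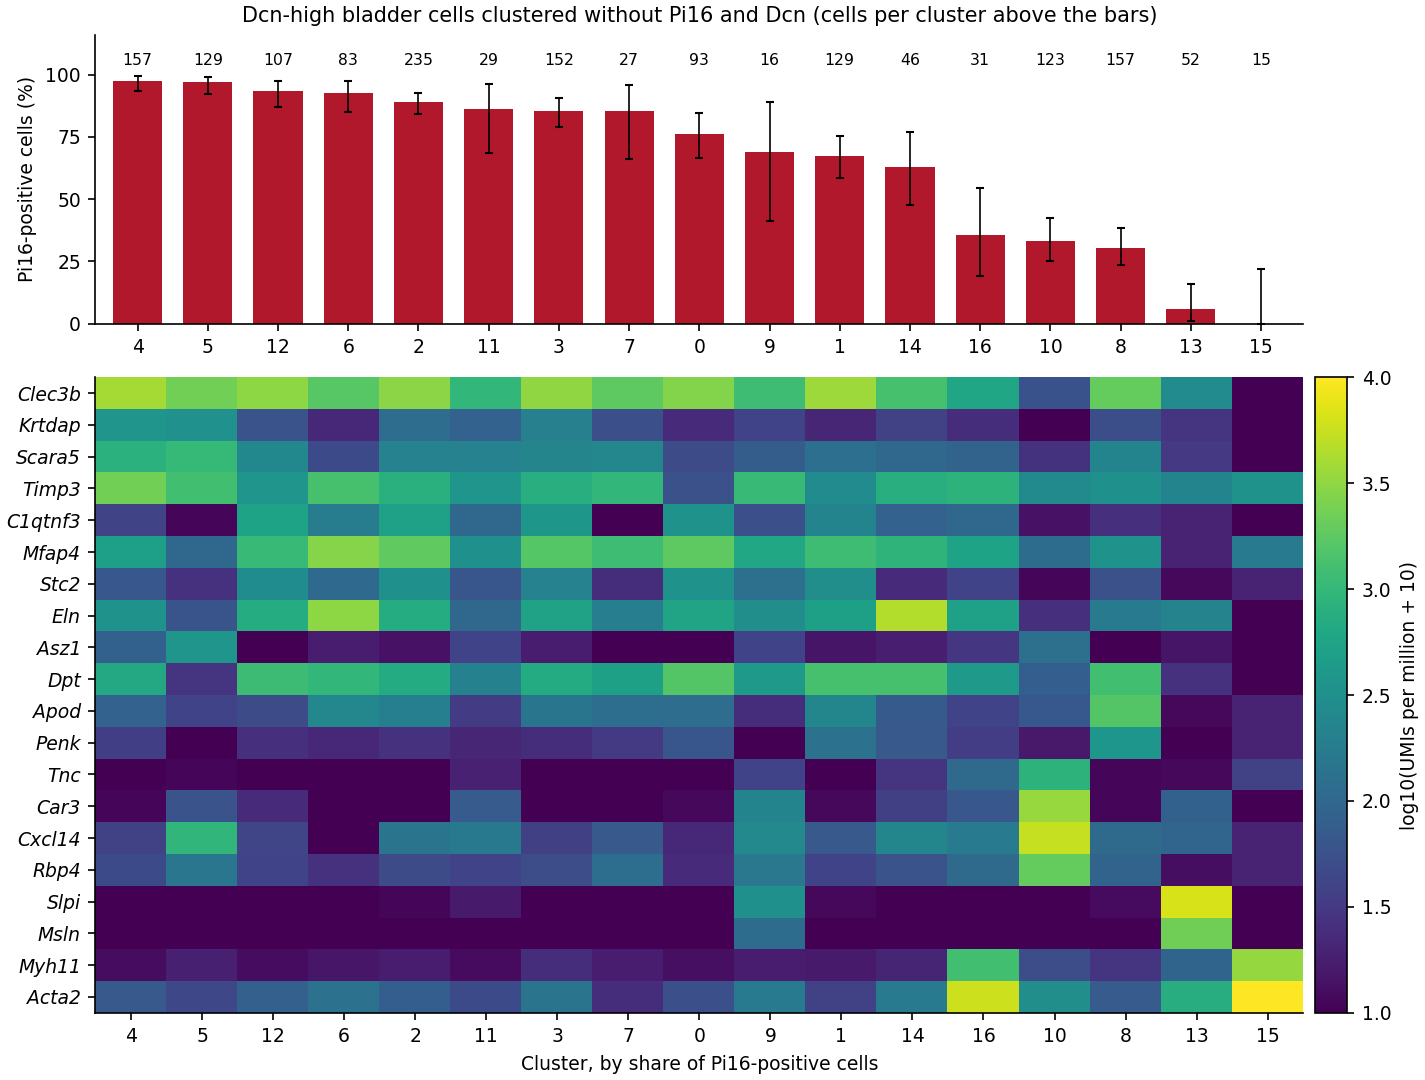
Share of Pi16-positive cells in each of 17 clusters of Dcn-high bladder cells with exact 95% intervals (top, cell numbers above the bars), and levels of named genes per cluster as log10 of CPM plus 10 (bottom, colour scale). Clusters 4 and 5 have the highest shares, 97.5% and 96.9%, clusters 8 and 10 lie at 30.6% and 33.3%, and cluster 15 holds none of its 15 cells.

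The same rule was applied to the assembloid libraries, which it was not built on. In the bladder, 1-day and 7-day libraries, Dcn-high cells were 22.5%, 0.293% and 13.7% of mouse cells. Of these Dcn-high cells, 72.3% in bladder, 2 of 25 in the 1-day library (8.00%, 0.984% to 26.0%) and 508 of 1146 in the 7-day library (44.3%, 41.4% to 47.3%) met the Pi16 rule. As a share of all mouse cells the rule found 16.3%, 0.0234% and 6.07%. The 2 cells of the 1-day library had 2 Pi16 UMIs each, with Dcn at 50.6 and 63.4 per 10,000 UMIs, and no level is given for them. With 1 library at each time, a change over time and a difference between these pools cannot be told apart.

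**Figure D4:**
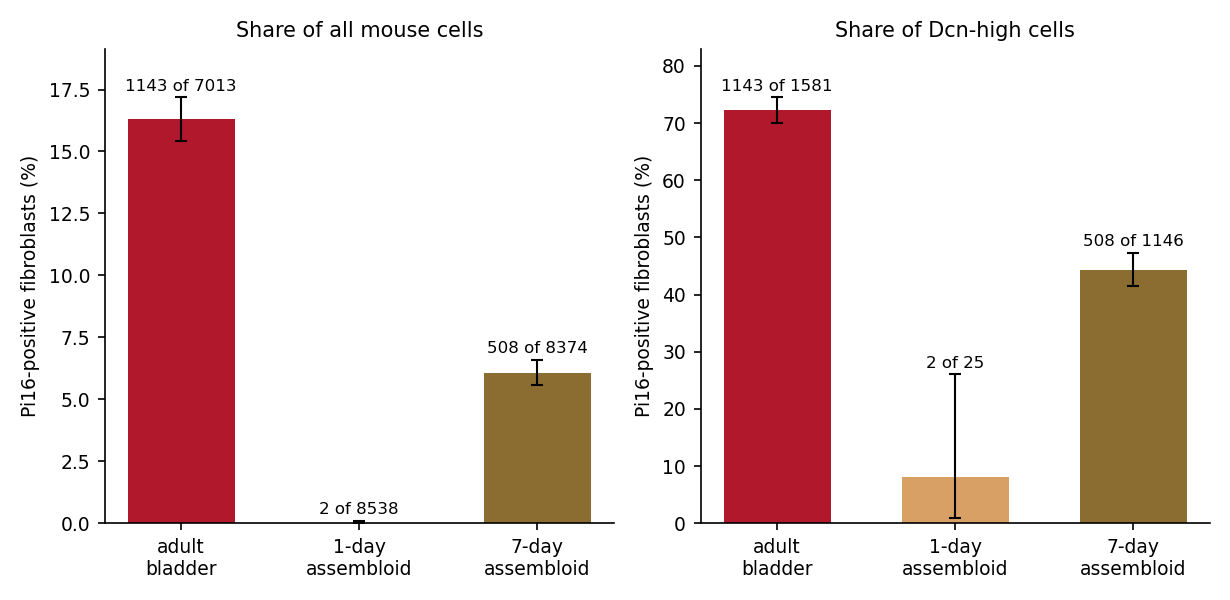
Cells of the rule in the adult bladder, the 1-day assembloids and the 7-day assembloids, in percent of all mouse cells and of Dcn-high cells, with exact 95% intervals. The bladder bars are highest at 16.3% and 72.3%, the 1-day bars lowest, and the 7-day bars between at 6.07% and 44.3%.

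The Pi16-positive cells of bladder and of 7-day assembloids had closely similar levels of most genes. Of 5900 measured genes, 24 (0.407%) were higher and 84 (1.42%) lower in bladder over 7-day cells, and over unmarked cells 22 of 5763 (0.382%) were higher and 6 (0.104%) lower. Exceptions over all cells were the contractile list, with 10 of 14 genes lower in bladder, and the cell cycle list, with 5 of 8 lower. Over unmarked cells 2 of 10 contractile genes and 0 of 3 cell cycle genes were lower. Of the 369 genes of the gene lists or named by rule with a level to plot, 363 (98.4%) lay within 2-fold between bladder and 7-day Pi16-positive cells over unmarked cells, and 283 (76.7%) between bladder Pi16-positive and Pi16-zero cells. These genes included those named for wide gaps between Pi16-positive and Pi16-zero cells. The second share was thus partly set by that choice, and the shares are not a like comparison. Over all measured genes of unmarked bladder cells, 2.16% were called higher and 5% lower in Pi16-positive than in Pi16-zero cells. Unmarked Clec3b was at 2836 CPM in bladder and 2781 CPM in 7-day Pi16-positive cells, Krtdap at 149 and 168 CPM, C1qtnf3 at 238 and 225 CPM, and Scara5 at 398 and 338 CPM. The 7-day Pi16-positive cells were shallower, with a median of 2722 UMIs beside 6062 in bladder. Of the 508 cells in the 7-day library, 5 shared a barcode with a bladder cell, and none with a Pi16-positive one.

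Genes of handling stress also had like levels. Of 30 immediate early and heat shock genes, none was called between bladder and 7-day Pi16-positive cells over unmarked cells (median log2 ratio 0.07), and Hspa1a was at 3867 CPM in bladder and 3846 CPM in 7-day cells. Among the few called genes, chosen after their values were seen, were the neutrophil chemokine Cxcl1, at 48.1 CPM in bladder and 13.9 CPM in 7-day cells (log2 1.75), Hhip, at 46.1 CPM in bladder and 18.2 CPM in 7-day cells (log2 1.31), and Sfrp2, a secreted Wnt modulator, at 107 CPM in bladder and 44.2 CPM in 7-day cells (log2 1.26). Those lower in bladder included the cytokine Il11, at 12.5 CPM in bladder and 40.7 CPM in 7-day cells (log2 -1.71), Acta2, at 52.9 CPM in bladder and 160 CPM in 7-day cells (log2 -1.60), Actg2, Zfp593 and Tcta. In cells under the Dcn minimum some of these genes differed in the same direction: Il11 was at 0.699 CPM in bladder and 93.0 CPM in 7-day cells of that kind, and Acta2 at 813 CPM in bladder and 6049 CPM in the 7-day library. Others differed in the opposite direction there: Tcta was at 20.6 CPM in bladder and 14.1 CPM in the 7-day library, and Sfrp2 at 1.03 CPM in bladder and 5.49 CPM in the 7-day library. The urothelial genes Krt18, Upk1a, Upk3a, Sprr1a, Sfn and Ivl, higher in bladder Pi16-positive cells, were likewise higher in those bladder cells, with Upk3a at 4187 CPM in bladder and 764 CPM in the 7-day library. The part of these other cells in the differences was not tested.

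**Figure D5:**
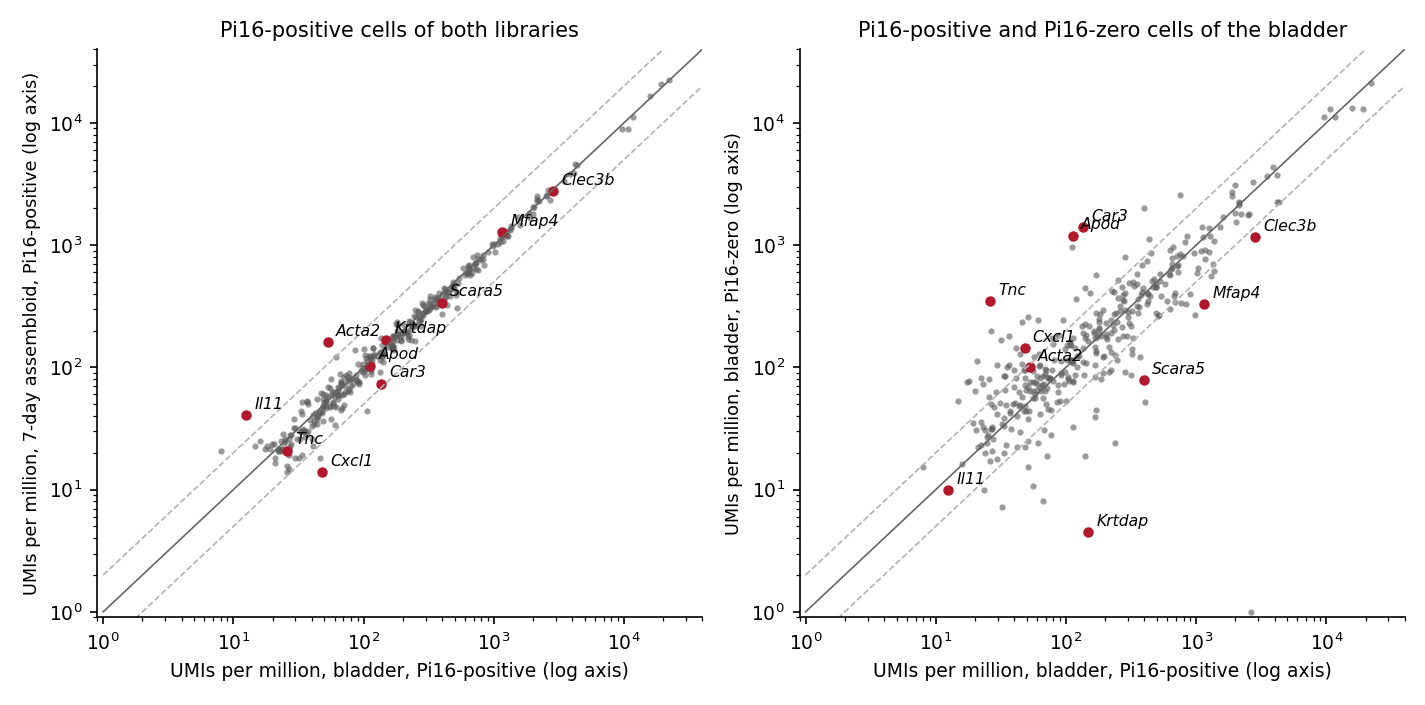
Levels of 369 genes of the lists or named by rule in cells without other types' markers, in counts-per-million (CPM) on log axes. Left, bladder against 7-day Pi16-positive cells, with 98.4% of genes within 2-fold (dashed lines). Right, bladder Pi16-positive against Pi16-zero cells, with 76.7% within 2-fold. Some of the genes were named for a wide gap in the right panel, so the shares are not a like comparison.

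Within the 7-day library, the 508 Pi16-positive cells were compared with its 505 Dcn-high cells without Pi16. Other types' markers were more common here, in 81 of 508 Pi16-positive cells (15.9%) and 291 of 505 Pi16-zero cells (57.6%), and the median depths were 2722 UMIs in Pi16-positive and 3936 UMIs in Pi16-zero cells. Over all cells 403 of 6242 genes (6.46%) were higher and 396 (6.34%) lower, and over the 427 Pi16-positive and 214 Pi16-zero unmarked cells 214 of 6073 (3.52%) were higher and 370 (6.09%) lower. Unmarked Krtdap was at 168 CPM in Pi16-positive and 3.69 CPM in Pi16-zero cells (log2 5.29), and C1qtnf3 at 225 CPM in Pi16-positive and 13.5 CPM in Pi16-zero cells. Tnc was at 20.8 CPM in Pi16-positive and 273 CPM in Pi16-zero cells (log2 -3.69), and Apod at 103 CPM in Pi16-positive and 1691 CPM in Pi16-zero cells (log2 -4.03). The directions were those seen in bladder.

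Over the 5636 genes measured in unmarked cells of both libraries, 120 were higher in Pi16-positive cells in bladder and 192 in the 7-day library, with 71 in both, which is 59.2% of the bladder genes and 37.0% of the 7-day genes. Lower were 196 in bladder and 251 in the 7-day library, with 120 in both (61.2% of the bladder genes and 47.8% of the 7-day genes). No gene was called in opposite directions. The adventitial list had 15 of 34 genes higher and 1 lower in the 7-day library, among them Clec3b (log2 1.77), Cd248 (log2 1.78) and Cd55 (log2 2.07), and the elastic fibre list 6 of 22 higher and 2 lower, with Eln at log2 2.52 and Mfap4 at 1.96. Chemokines and cytokines had 9 of 16 lower and 1 higher, and Wnt genes 6 of 11 lower and 1 higher. Of all genes measured over unmarked cells of the 7-day library, 3.52% were higher and 6.09% lower. Immediate early and heat shock genes had 17 of 30 higher over all cells of that library, beside 6.46% of all genes, and 0 of 30 over unmarked cells. Fbn1 and Fbln2, called in bladder, were not called there (log2 0.80 and -0.43).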

How the data were processed

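For each of 3 libraries the authors deposited raw UMI counts, not normalized, as a matrix of genes by barcodes. Cell Ranger 3.1.0 had made them, per the file headers, with builds GRCh38, mm10 and hg38 in the submitters' processing notes. The annotation release is not given in the sources used here. Mouse cells had at least 90% of UMIs on mouse genes, at least 500 genes and under 20% mitochondrial UMIs. UMIs were summed per group and divided by the group's total (CPM). Ratios carry exact conditional Poisson 95% intervals and, on the log2 scale, a prior count of 0.5, and shares carry Clopper-Pearson intervals. They cover counting error only. The members, the 24 gene lists (557 of 560 genes in the files) and the marker lists were chosen with earlier results of these data known. Named were the label genes, the 14 highest and 14 lowest called ratios with at least 50 CPM in the higher group, and up to 4 genes of each list by size of ratio, without mitochondrial, ribosomal, hemoglobin, sex-linked and predicted genes and those more than 5-fold higher in cells under the Dcn minimum. Other genes named were chosen after their values were seen. Those 112 genes' positions came from GENCODE vM21 (mm10). Promoters came from RefSeq (GRCm38.p6), and those of Clec3b and Scara5 were not used here. Clustering used 2000 variable genes, 30 components, 15 neighbours and Leiden resolution 1, with no batch correction. Doublets were called with Scrublet and kept in the main values. For shares, cells were thinned to 3000 UMIs. Leaving out cells with other types' markers was planned for the bladder comparison, and was added after seeing the data for the 7-day library and for bladder over 7-day. The calling step was tested on simulated data. The work used scanpy 1.11.5 with leidenalg 0.10.2, scipy 1.17.1, numpy 2.4.6 and pandas 2.3.3 under Python 3.11.15, and figures used matplotlib 3.10.9.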

Additional observations from a re-analysis of the deposited data

Results flagged for a closer look

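Among the named genes, 3 had log2 ratios of Pi16-positive over Pi16-zero cells with opposite signs in bladder and in the 7-day library over all cells, past 2-fold and with at least 20 CPM in one group in each. The difference was not tested, since each library had no replicate. Tnfaip6, a hyaluronan-binding protein, had a log2 ratio of -1.69 in bladder and 1.12 in the 7-day library. Asz1, known from germ cells, had 2.34 in bladder and -1.28 in the 7-day library. Irf1, an interferon-responsive factor, had -1.03 in bladder and 1.08 in the 7-day library. Cxcl13, under that minimum in the 7-day library at 19.1 CPM in Pi16-positive and 4.30 CPM in Pi16-zero cells, had -1.90 in bladder and 2.13 in the 7-day library. Over unmarked cells the 7-day values were -0.09 for Tnfaip6, 0.52 for Asz1 and -0.04 for Irf1, and none of these was called.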

How the results depend on the processing

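The Pi16-positive share of bladder mouse cells was 18.2% with at least 1 Pi16 UMI and 12.3% with at least 5. Genes called higher and lower numbered 273 and 1143 with a minimum of 5 CPM, 71 and 123 with a minimum of 100 CPM, and 46 and 257 at 3-fold. Genes lower numbered 306 without marked cells. Centring on the median log2 ratio, a shift of -0.12, gave 197 higher and 413 lower. The largest share of Pi16-positive cells in 1 cluster was 31.4% at Leiden resolution 0.5, 11.99% at resolution 2 and 28.1% with 30 neighbours, and the share in clusters of mostly Pi16-positive cells was 98.0% at resolution 0.5. In the 7-day library the rule found 55.9% of Dcn-high cells with at least 1 Pi16 UMI, 24.1% with at least 5 and 51.8% with at least 2 per 10,000 UMIs, and in the 1-day library 0% with at least 5. Without marked cells, the 7-day comparison had 214 genes higher, and bladder over 7-day had 6 genes lower. Over 111 named genes and 14 settings, 1405 of 1478 values (those of genes past the CPM minimum) had the same call or lack of one, 55 lost the call, 17 gained it and 1 reversed, that of Clu, at 0.03 without marked cells. In that setting 70 of the 111 genes kept their call or lack of one, 14 lost the call, 3 gained it and 1 reversed. The rest of the 111 fell under the CPM minimum there and gave no value. Without marked cells the uncalled Dpt and Klf2 also changed sign, at -0.04 and 0.19. The cause was not tested. No paired analysis was possible because each group had 1 library. The pool of animals, the dissociation and the library cannot be told apart from the group, and levels near 20 CPM rest on few UMIs in the Pi16-zero cells.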
